A study of Mus musculus with 4 samples.

Results

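The genes of fatty acid oxidation were followed through single-cell RNA counts of mouse brains that carried mammary tumours. They are 30 genes of the 32285 in the matrices, chosen by symbol for mitochondrial and peroxisomal beta-oxidation and its regulators, and all 30 symbols were found. GFP-carrying cells of EO771, a cancer line from mouse mammary gland, were placed in the brains of immunocompetent female C57BL/6 mice. The mice then received an inhibitor of stearoyl-CoA desaturase (SCDi) or vehicle (CTRL) for 14 days. The labels name neither the ages of the mice nor the compound or dose of the inhibitor. For each treatment 3 mice were pooled and sorted by DAPI exclusion, CD45 and GFP into tumour cells (GFP-positive, CD45-negative) and immune cells (CD45-positive, GFP-negative). Each sort gave 1 library, so the 4 groups are SCDi tumour, SCDi immune, CTRL tumour and CTRL immune, with 1 library each.

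Beta-oxidation shortens fatty acyl-CoA step by step and passes electrons to the respiratory chain. Long-chain acyl groups reach the mitochondrial matrix through the carnitine shuttle, and very long and branched chains are first shortened in peroxisomes. Double bonds already in a fatty acid need auxiliary isomerases and reductases, and stearoyl-CoA desaturase is the enzyme that puts such a bond into saturated acyl-CoA. Genes of the pathway are classical targets of the fatty acid-sensing PPAR nuclear receptors and of their PGC-1 coactivators.

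Promoter sequence was read for 25 of the 30 genes from RefSeq (GRCm38.p6), in windows of 250 bases before and 50 bases after the start site. Shown 5′ to 3′ are Cpt1a and Slc25a20, the carnitine shuttle genes that were lower in SCDi malignant cells and SCDi monocytes, and Hadhb, whose counts differed little. The windows are chr19:3323051-3323350 for Cpt1a, chr9:108661886-108662185 for Slc25a20 and chr5:30155003-30155302 for Hadhb, all on the plus strand. The RefSeq start of Cpt1a lies downstream of the outermost start in GENCODE. Capitals mark AGGTCA, the core hexamer bound by many nuclear receptors, searched on both strands.
Cpt1a: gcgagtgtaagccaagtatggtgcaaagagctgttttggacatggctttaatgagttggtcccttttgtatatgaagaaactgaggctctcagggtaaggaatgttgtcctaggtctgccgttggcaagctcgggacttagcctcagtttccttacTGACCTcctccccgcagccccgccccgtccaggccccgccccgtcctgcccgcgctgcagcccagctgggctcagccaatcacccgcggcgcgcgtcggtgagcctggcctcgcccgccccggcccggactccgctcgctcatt
Slc25a20: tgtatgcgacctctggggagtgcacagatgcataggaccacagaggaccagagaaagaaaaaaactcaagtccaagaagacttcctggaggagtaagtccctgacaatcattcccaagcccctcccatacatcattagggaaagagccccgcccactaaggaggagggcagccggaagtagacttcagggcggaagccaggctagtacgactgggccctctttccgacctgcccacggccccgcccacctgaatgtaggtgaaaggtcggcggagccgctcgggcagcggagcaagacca
Hadhb: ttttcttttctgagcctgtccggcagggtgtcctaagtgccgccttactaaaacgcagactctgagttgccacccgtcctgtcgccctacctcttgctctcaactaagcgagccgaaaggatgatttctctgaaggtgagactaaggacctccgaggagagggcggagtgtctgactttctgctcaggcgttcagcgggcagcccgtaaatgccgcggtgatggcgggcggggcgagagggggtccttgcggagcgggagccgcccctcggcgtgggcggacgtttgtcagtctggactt
The match in Cpt1a lies on the minus strand, from base -94 to base -89 before the start. AGGTCA was found in 3 of the 25 promoters (Acadm, Acadvl and Cpt1a), against 16.3% of 32851 promoters of the same length. A pair of AGGTCA hexamers 1 base apart, the layout that PPAR with RXR is known to bind, was found in 0 of 25, against 0.0396% of all promoters, and with any base at the fourth position (AGGNCA) in 0 of 25, against 0.381%. TCAAGGTCA, the extended hexamer of the estrogen-related receptors, which overlaps AGGTCA, was found in 0 of 25, against 0.423%. Shares this low make 0 the likely count for any 25 promoters, and only exact matches within these windows were searched. These counts of 0 therefore do not show whether the genes have such sites. Hadhb and Hadha start 272 bases apart on opposite strands of chromosome 5, so that the bases shown for Hadhb also hold most of the Hadha promoter.

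The libraries held 9034 barcodes in SCDi tumour, 6777 in SCDi immune, 7713 in CTRL tumour and 7332 in CTRL immune, with 135851178 to 329888529 UMIs each. Libraries shared 9 to 23 barcodes with each other, at most 0.255% of a library. Cells were assigned by marker genes to 1 malignant class and 10 leukocyte classes, each of which had 50 or more cells and 100000 or more UMIs per library. The malignant class required a keratin gene (Krt8, Krt18 or Krt7) and left out cells of the tumour libraries with 3 or more leukocyte markers or 4 or more endothelial markers, so its marker levels describe the gate and are no check of the sort. Ptprc, which encodes CD45, had 0 UMIs in SCDi malignant cells and 4 UMIs in CTRL malignant cells, and Krt8 stood at 1405 CPM in SCDi and 1487 CPM in CTRL. In leukocytes Krt8 differed in both directions, with 3.65 CPM in SCDi macrophages and 13.7 CPM in CTRL macrophages, and with 5.57 CPM in SCDi cells and 1.13 CPM in CTRL cells that passed both the monocyte and the macrophage gate. Its part in the leukocyte values was not tested. Levels are CPM, a gene's UMIs scaled to 1000000 UMIs of its class, and a gene counts as measured with at least 5 CPM in either library and 100 UMIs over both. A ratio is called higher or lower where it passes a line drawn at 5 to 4, which is 0.32 on the log2 scale. With 1 library per group no test across animals can be made. The 95% intervals cover counting error only, and treatment, library and pool of mice cannot be told apart.

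In malignant cells most of the measured oxidation genes lay within the line, with 4 low-level genes lower in SCDi and none higher past the line. The genes that were lower were Cpt1a, Decr2, Decr1 and Slc25a20. Of the 30 genes, 23 were measured there, in 7924 SCDi cells with a median depth of 36647 UMIs and 6818 CTRL cells with a median depth of 41258 UMIs. Among all 9475 measured genes 6.68% were lower and 3.51% higher past the line. The median log2 ratio of the 23 genes was -0.09, against -0.04 over all measured genes, and 16 of the 23 were below 0, as were 58.8% of all measured genes. Counting intervals lay wholly below 0 for 12 of the 23 genes and wholly above 0 for 4, a count not made over all measured genes. When cells needed 1 more malignant marker, 2 of the 23 genes (Cpt1a and Decr2) were called lower. Together the 30 genes took 0.0827% of UMIs in SCDi malignant cells and 0.0871% in CTRL malignant cells.

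The 4 called genes all had fewer than 10 CPM in both libraries. Decr2, and Acox3 among the genes within the line, reached the floor of 5 CPM in CTRL alone, so that their being measured was not independent of the direction. Bands of level were chosen after the values were seen. At 5 to 10 CPM in the higher library 4 of 5 oxidation genes were called lower, against 11.2% of 1236 genes. At 10 to 20 CPM 0 of 3 were called lower, against 7.41% of 1877 genes. From 20 CPM upward 0 of 15 oxidation genes were called lower, against 5.6% of 6362 genes. The median log2 ratio of the 15 was -0.01, against -0.03 over the 6362 genes.

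The carnitine shuttle was uneven. Cpt1a, which links long-chain acyl groups to carnitine at the outer membrane and is the step held back by malonyl-CoA, had 5.66 CPM in SCDi malignant cells (1646 UMIs) and 7.89 CPM in CTRL malignant cells (2177 UMIs). That is 1.39-fold lower in SCDi (log2 -0.48, interval -0.57 to -0.39). Slc25a20, the carrier that brings acylcarnitine across the inner membrane, had 5.53 CPM in SCDi and 6.96 CPM in CTRL malignant cells, with a log2 ratio of -0.33 (-0.43 to -0.24), just past the line. It was within the line at -0.20 when CPM was averaged over single cells and at -0.18 when cells needed 1 more malignant marker. Both genes were lower in SCDi beyond their counting intervals. Cpt2, which returns the acyl group to CoA inside, had 9.86 CPM in SCDi and 10.1 CPM in CTRL, and its interval held 0 (-0.12 to 0.03). Crat, which moves acetyl and other short acyl groups onto carnitine, had 25.2 CPM in SCDi and 23.5 CPM in CTRL (log2 0.10).

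The acyl-CoA dehydrogenases open each round of the cycle and differ in the chain length they take. Acadl, the long-chain enzyme, had 64.8 CPM in SCDi malignant cells and 80.1 CPM in CTRL malignant cells. Its log2 ratio of -0.30 (-0.33 to -0.28) came just short of the line and was the lowest of the genes above 20 CPM. Acadvl, the very long-chain enzyme, had 20.8 CPM in SCDi and 23.7 CPM in CTRL (log2 -0.19). Acads, the short-chain enzyme, had 44.4 CPM in SCDi and 50.2 CPM in CTRL (log2 -0.18). Acadm, the medium-chain enzyme, had 36.6 CPM in SCDi and 36.8 CPM in CTRL, with an interval that held 0. Of this group 3 of 4 genes lay below 0 beyond counting error and none passed the line.

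The genes of the later steps sat near 0 or slightly above it, apart from Acaa2. The trifunctional protein, which carries out the last reactions on long chains at the inner membrane, is made of the Hadha and Hadhb products. Hadha had 56.3 CPM in SCDi malignant cells and 54.9 CPM in CTRL malignant cells (log2 0.04). Hadhb had 45.9 CPM in SCDi and 42.6 CPM in CTRL, which at log2 0.11 was the highest ratio among the measured genes. Hadh, the dehydrogenase for shorter chains, had 24.0 CPM in SCDi and 23.9 CPM in CTRL. Acaa2, the matrix thiolase that releases acetyl-CoA, had 28.9 CPM in SCDi and 34.0 CPM in CTRL (log2 -0.23, interval -0.28 to -0.19).

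The electron transfer genes were even between treatments. Etfa and Etfb encode the flavoprotein that takes electrons from the dehydrogenases. Etfa had 54.0 CPM in SCDi malignant cells and 53.9 CPM in CTRL malignant cells, and Etfb had 119 CPM in SCDi and 120 CPM in CTRL. Etfdh, which hands the electrons to ubiquinone, had 11.9 CPM in SCDi and 12.4 CPM in CTRL. The log2 ratios of the 3 genes ran from -0.07 to 0.00, and all 3 intervals held 0.

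Among the auxiliary genes for unsaturated chains the reductases were lower past the line and the isomerases lay within it. Decr1, the mitochondrial dienoyl-CoA reductase, had 7.62 CPM in SCDi malignant cells (2216 UMIs) and 9.82 CPM in CTRL malignant cells (2710 UMIs), a log2 ratio of -0.37 (-0.45 to -0.28). Decr2, its peroxisomal counterpart, had 4.43 CPM in SCDi (1287 UMIs) and 5.88 CPM in CTRL (1621 UMIs), a log2 ratio of -0.41 (-0.52 to -0.30). Both were called lower. Eci1, a mitochondrial isomerase that shifts double bonds into place, had 82.1 CPM in SCDi and 78.0 CPM in CTRL (log2 0.07). Eci2, a further isomerase with a near copy in Eci3, had 33.0 CPM in SCDi and 35.2 CPM in CTRL (log2 -0.09).

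The peroxisomal genes beside Decr2 stayed within the line. Acox3, an oxidase for branched chains, had 4.77 CPM in SCDi malignant cells and 5.47 CPM in CTRL malignant cells (log2 -0.20, interval -0.30 to -0.09). Hsd17b4, the D-bifunctional enzyme, had 44.5 CPM in SCDi and 48.2 CPM in CTRL (log2 -0.11). Acaa1a, the thiolase, whose reads can be shared with its near copy Acaa1b, had 18.1 CPM in SCDi and 17.9 CPM in CTRL. Ehhadh, the L-bifunctional enzyme, was under the floor, with 99 UMIs in SCDi and 117 UMIs in CTRL.

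Of the regulators only Ppard was measured in malignant cells. Ppard, the PPAR of many tissues, had 74.6 CPM in SCDi malignant cells and 84.3 CPM in CTRL malignant cells (log2 -0.18, interval -0.20 to -0.15). Ppara, the PPAR best known from liver, had 15 UMIs in SCDi and 18 UMIs in CTRL. The coactivator genes were also under the floor, with 5 UMIs of Ppargc1a in SCDi and 7 in CTRL, and 87 UMIs of Ppargc1b in SCDi and 129 in CTRL. Pdk4, which turns down pyruvate dehydrogenase when fat is burned, had 0 UMIs in SCDi and 3 UMIs in CTRL, both within the limit of 3 counts that a count of 0 allows.

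Of the genes under the floor 4 had 100 or more UMIs over both libraries. Ppargc1b had a log2 ratio of -0.64 (-1.05 to -0.24), and Ehhadh one of -0.32 with an interval that held 0 (-0.72 to 0.08). Acot2, a matrix thioesterase whose reads can be shared with its near copy Acot1, had 387 UMIs in SCDi malignant cells and 660 UMIs in CTRL malignant cells (1.33 CPM in SCDi, 2.39 CPM in CTRL, log2 -0.85, interval -1.03 to -0.66). Ucp2, an inner-membrane carrier with an uncoupling protein's name, had 877 UMIs in SCDi malignant cells and 529 UMIs in CTRL malignant cells (3.02 CPM in SCDi, 1.92 CPM in CTRL, log2 0.65, interval 0.50 to 0.81). Of these 4 genes Acot2 and Ppargc1b were lower in SCDi beyond their counting intervals and Ucp2 was higher. Macrophages held far more Ucp2, with 861 CPM in SCDi and 692 CPM in CTRL, so the malignant level equals 0.35% of theirs in SCDi and 0.277% in CTRL. C1qb, a macrophage gene, had 0.0757 CPM in SCDi malignant cells and 0.116 CPM in CTRL malignant cells, against 3631 CPM in SCDi macrophages and 3525 CPM in CTRL macrophages, which is 0.00208% in SCDi and 0.00329% in CTRL. All 10 macrophage markers were detected in malignant cells of both libraries, with summed levels of 13.4 CPM in SCDi and 16.7 CPM in CTRL. Of these sums Cd68 alone gave 5.46 CPM in SCDi and 8.66 CPM in CTRL. The part of macrophage RNA in the Ucp2 counts was not tested.

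**Figure D1:**
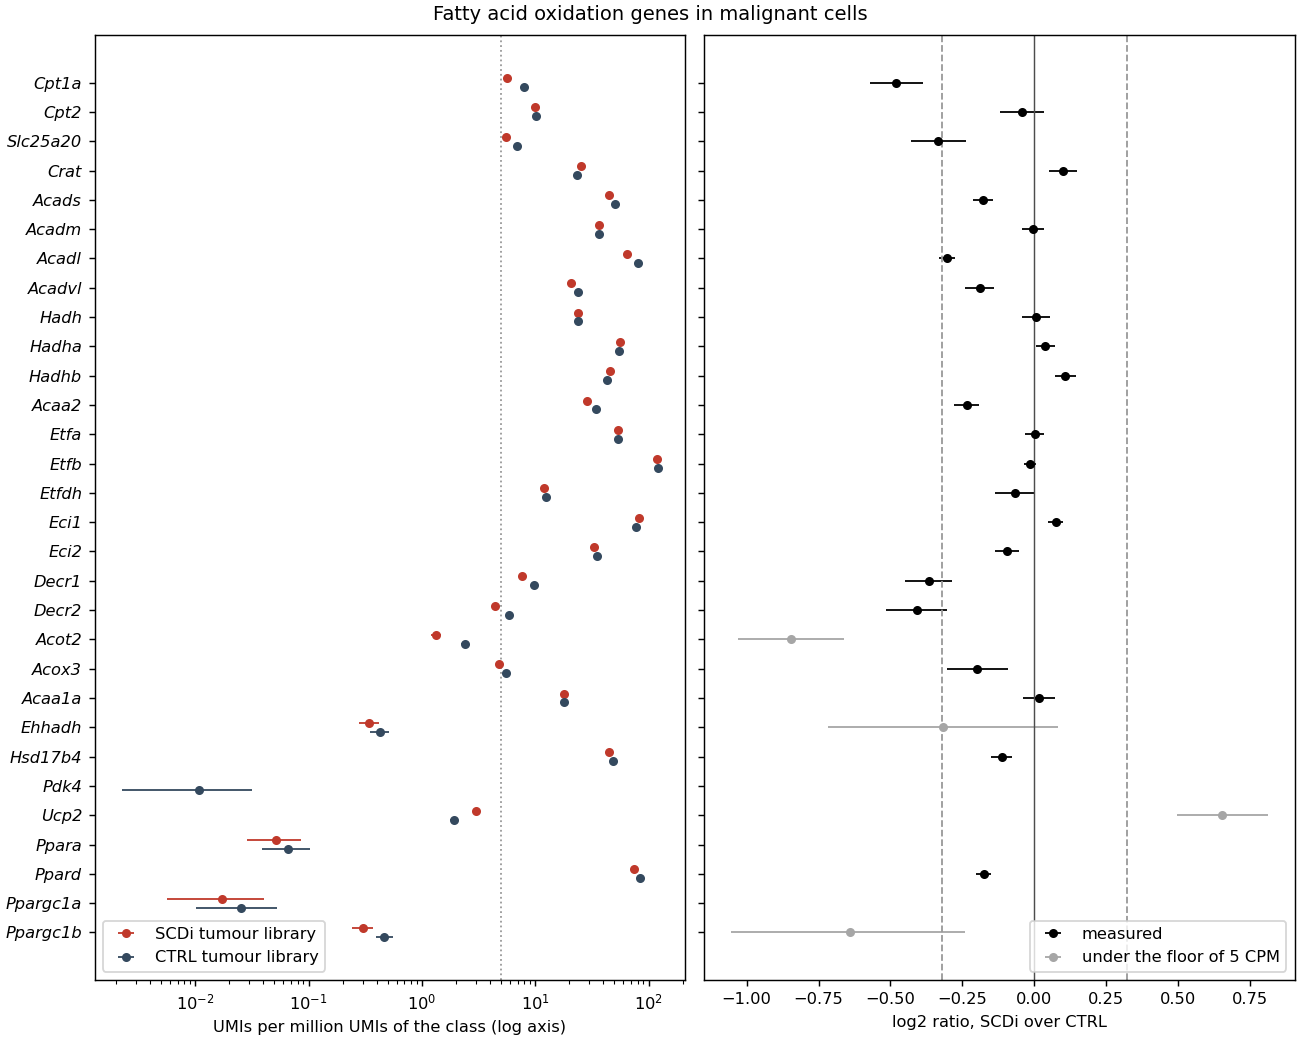
Left, level of each of the 30 genes in SCDi (red) and CTRL (blue-grey) malignant cells in CPM on a log axis, with exact Poisson 95% intervals and a dotted line at the floor of 5 CPM. A count of 0 (Pdk4 in SCDi) has no point. Right, log2 ratio of SCDi over CTRL with exact 95% counting intervals for genes with at least 100 UMIs, and dashed lines at a log2 ratio of 0.32 either way. Cpt1a, Decr2, Decr1 and Slc25a20 lie past the lower line among measured genes (black), and Acot2, Ppargc1b and Ucp2 lie past a line among genes under the floor (grey).

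The malignant cells fell into clusters that the libraries filled unequally. Cluster 0 held 5.05% of SCDi and 21.5% of CTRL malignant cells, and cluster 7 held 10.3% of SCDi and 0.792% of CTRL malignant cells. Within the 16 clusters that had 50 cells in both libraries, Slc25a20 was lower in SCDi in 14 clusters, Acadl in 14 and Cpt1a in 12. Hadhb was higher in SCDi in 13 of the 16 clusters and Eci1 in 12. Decr2 was lower in 9 and higher in 7, so that its sign differed between clusters about evenly. The mean log2 ratio over the 16 clusters was -0.26 for Cpt1a, -0.24 for Slc25a20, -0.31 for Acadl, -0.18 for Decr1 and -0.24 for Decr2. With each cluster given equal weight 0 genes passed the lower line. Counts per cluster were small. Cpt1a in cluster 7 rested on 132 UMIs in SCDi (3.35 CPM) and 18 UMIs in CTRL (6.58 CPM), and in cluster 8 its 4.77 CPM in SCDi stood above 3.16 CPM in CTRL. Shallow clusters held 1054 SCDi and 1036 CTRL malignant cells, and 1 of them gave the Slc25a20 ratio of 1.58 from 10 UMIs in SCDi and 5 UMIs in CTRL.

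**Figure D2:**
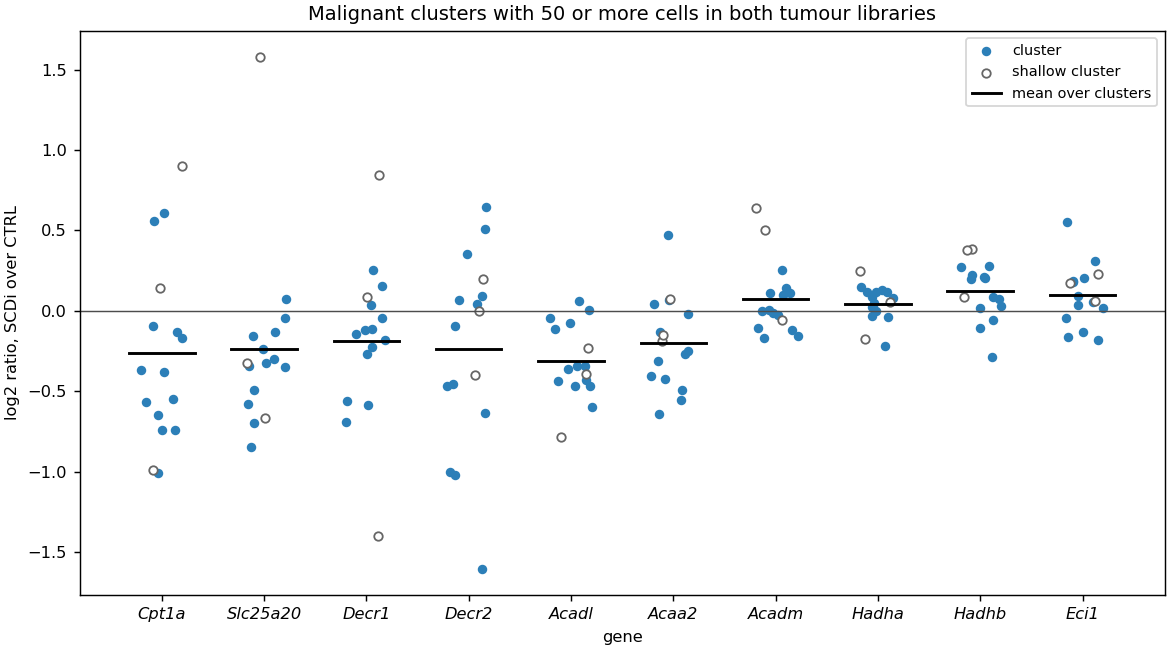
Log2 ratio of SCDi over CTRL for 10 of the genes in each of the 16 malignant clusters that had 50 or more cells per library, 1 point per cluster (open circles, shallow clusters) with a bar at the mean. Acadl and Slc25a20 lie below 0 in 14 of 16 clusters, Hadhb lies above 0 in 13, and Decr2 spreads from -1.61 to 0.65.

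Markers of cycling and of low oxygen differed between the same libraries. Mki67 stood at 35.2 CPM in SCDi malignant cells and 25.8 CPM in CTRL malignant cells, and Top2a at 306 CPM in SCDi and 262 CPM in CTRL. Of 10 hypoxia markers 9 were measured, and all 9 were below 0 and 5 past the line, with a median log2 ratio of -0.57. They ran from Adm, which encodes adrenomedullin, at -1.30 and Bnip3, a mitophagy gene, at -1.21 to the growth factor gene Vegfa at -0.23 and the lactate dehydrogenase gene Ldha at -0.12. Their part in the oxidation genes was not tested. In cells with neither Mki67 nor Top2a (1268 SCDi and 1609 CTRL cells) the log2 ratio was -0.67 for Cpt1a (-1.01 to -0.35), -0.30 for Slc25a20 (-0.62 to 0.01), -0.57 for Decr1, -0.73 for Decr2 and -0.32 for Acadl. In cells with either marker (6656 SCDi and 5209 CTRL cells) it was -0.47 for Cpt1a, -0.34 for Slc25a20, -0.31 for Decr1, -0.34 for Decr2 and -0.29 for Acadl. These 5 genes were below 0 in both parts. Cpt1a and Decr2 passed the line in both, Decr1 was within it in the cells with either marker, Slc25a20 was within it in the cells with neither, with an interval that held 0, and Acadl was within it in both. Other genes moved between the parts as well. Ppard was at 0.07 in cells with neither marker (-0.01 to 0.14) and at -0.18 in cells with either (-0.21 to -0.15). Acads, at -0.37, and Acaa2, at -0.35, passed the line in cells with neither marker and were within it in cells with either, Acads at -0.14 and Acaa2 at -0.20. A cell counted as having neither marker when no UMI of these genes was detected, which is more likely in a shallow cell. The part of depth in the differences between the parts was not tested.

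Other genes of the pathway in malignant cells showed no common direction. Of 20 measured genes of activation, carnitine handling and the matrix, 1 was lower and none higher past the line, with a median log2 ratio of -0.02. Acsl6, an acyl-CoA synthetase, had 10.3 CPM in SCDi and 13.8 CPM in CTRL (log2 -0.41), and Pccb, a subunit of propionyl-CoA carboxylase, had a log2 ratio of -0.27. The highest were Acsl3, another synthetase, at 0.29 and Hsd17b10, a matrix dehydrogenase, at 0.23. Of 12 further peroxisomal genes 1 was lower, the protease Lonp2 (43.6 CPM in SCDi, 55.9 CPM in CTRL, log2 -0.36). Next to it stood Abcd3, an importer of acyl-CoA, at -0.14, and the highest were Nudt19, a CoA hydrolase, at 0.28 and Crot, carnitine octanoyltransferase, at 0.12.

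Among 10 genes of malonyl-CoA and energy sensing 1 was lower and none higher, with a median log2 ratio of 0.09. Prkab2, a subunit of AMP-activated kinase, was at -0.44 and Mlycd, which breaks down malonyl-CoA, at -0.26. At the other end were Prkag1, another subunit of the kinase, at 0.23, and Acaca, which makes malonyl-CoA, with 69.4 CPM in SCDi and 60.6 CPM in CTRL (log2 0.20). Of the ketone body genes, Oxct1 at 0.10 and the monocarboxylate carrier Slc16a1 at 0.16 were within the line. Of 9 genes of the pyruvate dehydrogenase switch 1 was lower, Pdk1, a kinase of that enzyme, with 19.2 CPM in SCDi and 28.9 CPM in CTRL (log2 -0.59). Dlat, a core subunit, was at -0.08, and the highest were the phosphatase gene Pdp2 at 0.12 and the subunit gene Pdhx at 0.10.

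Of 5 measured PPAR targets outside the pathway 3 were lower, with a median log2 ratio of -0.33. Plin2, a lipid droplet coat protein, had 72.0 CPM in SCDi malignant cells and 115 CPM in CTRL malignant cells (log2 -0.67), and the transcription factor gene Klf11 was at -0.46. Fabp3, a fatty acid-binding protein, was the highest at 0.05, after Txnip at -0.11. Of 12 nuclear receptor and cofactor genes none was lower and Lpin1, a coactivator and phosphatidate phosphatase, was higher, with 11.6 CPM in SCDi and 7.92 CPM in CTRL (log2 0.56). Tfam, a mitochondrial transcription factor, followed at 0.19, and Rxrb at -0.12 and Rxra at -0.11, the partners of PPAR, were the lowest.

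Levels differed widely between the cell classes. In CTRL, Cpt1a was lowest of 11 classes in malignant cells, at 7.89 CPM, and highest in macrophages, at 40.8 CPM, a 5.17-fold span. The order in between was cells in both gates at 36.0 CPM, B cells and monocytes at 32.8 CPM each, microglia at 30.0, NK cells at 26.8, T cells at 26.1, type 2 conventional dendritic cells at 19.4, plasmacytoid dendritic cells at 16.7 and migratory dendritic cells at 11.7 CPM. Neighbours in that order had overlapping counting intervals except at its ends. Slc25a20 was also lowest in malignant cells, at 6.96 CPM, and highest in type 2 conventional dendritic cells, at 88.8 CPM. Malignant cells were lowest of the 11 classes for Acox3 (5.47 CPM), Acaa1a (17.9 CPM), Ucp2 and Ppargc1b as well.

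Some genes were highest in 1 class, with a wide or a narrow gap to the next. Acadm had 214 CPM in SCDi and 225 CPM in CTRL migratory dendritic cells, and the next class in CTRL, type 2 conventional dendritic cells, had 47.9 CPM. The same migratory cells were lowest in CTRL for Hadh, Hadha, Hadhb, Acaa2, Acadvl, Etfb and Ppard, with Hadh at 1.70 CPM and Acaa2 at 6.46 CPM. Acadl was highest in plasmacytoid dendritic cells, with 330 CPM in SCDi and 404 CPM in CTRL, and so was Hadhb, with 125 CPM in SCDi and 127 CPM in CTRL. The next class in CTRL was type 2 conventional dendritic cells for Acadl (239 CPM) and NK cells for Hadhb (85.3 CPM). Eci1 was highest in malignant cells, at 82.1 CPM in SCDi and 78.0 CPM in CTRL, and B cells came next in CTRL with 31.7 CPM. Microglia led for Acox3 (92.1 CPM in SCDi, 80.6 CPM in CTRL), Hsd17b4 (95.7 CPM in SCDi, 82.3 CPM in CTRL) and Ppard (125 CPM in SCDi, 122 CPM in CTRL). Next in CTRL were plasmacytoid dendritic cells for Acox3 (39.3 CPM) and macrophages for Hsd17b4 (60.1 CPM). For Ppard they were type 2 conventional dendritic cells (100 CPM). Ppargc1a was highest in NK cells, at 18.8 CPM in SCDi (21 UMIs) and 28.0 CPM in CTRL (47 UMIs). Immune classes share 1 library per treatment and its free RNA, and the part of free RNA in these levels was not tested.

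**Figure D3:**
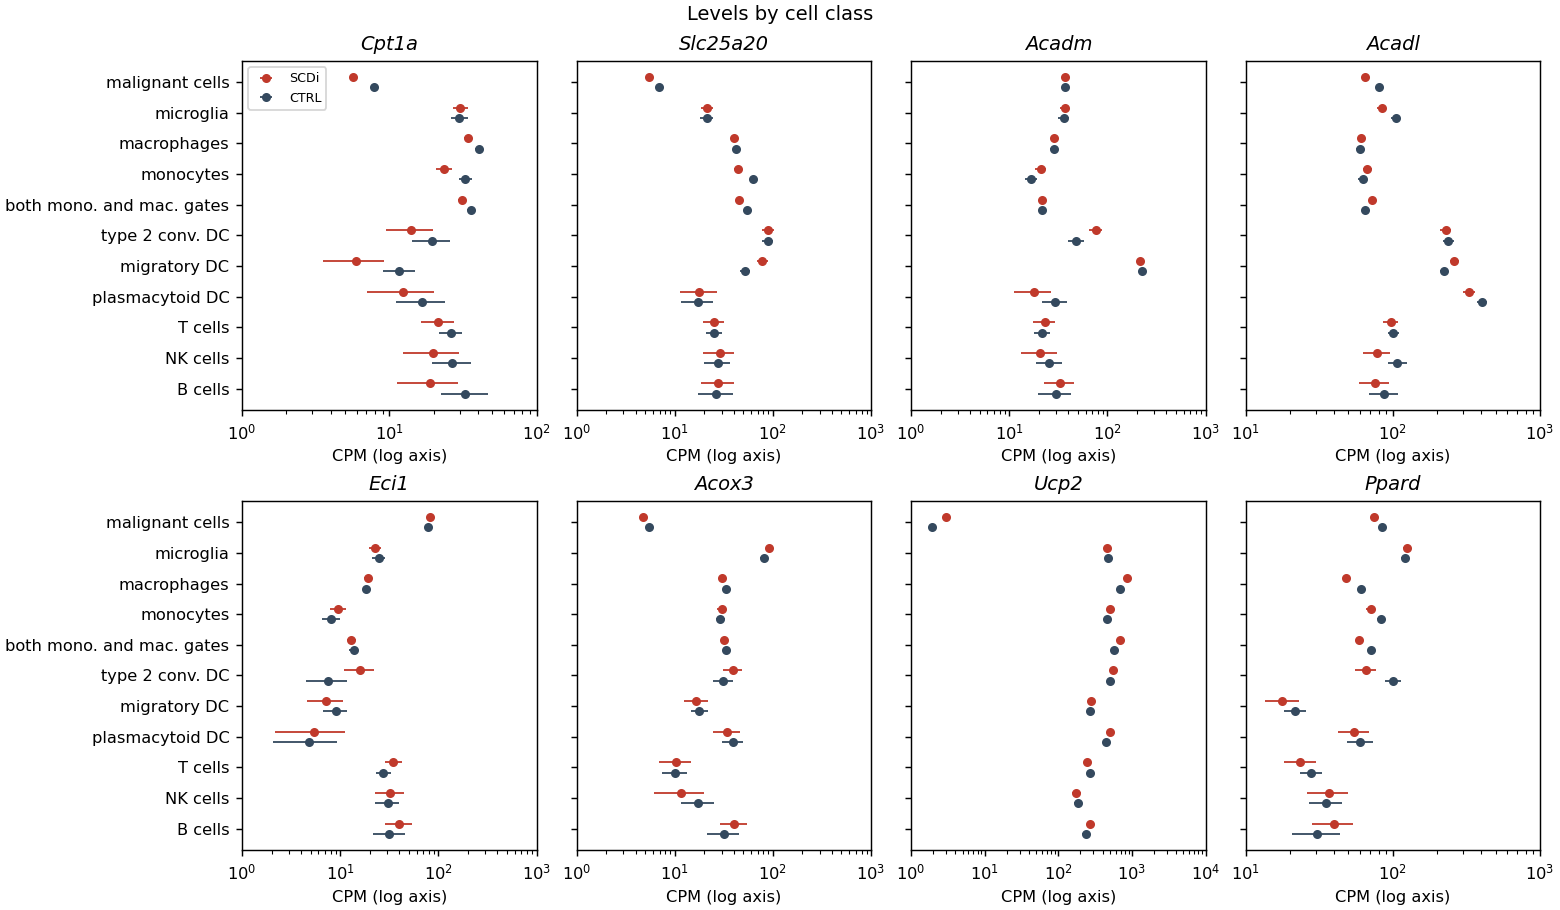
Level of 8 of the genes in each of the 11 cell classes in CPM on log axes, SCDi in red above CTRL in blue-grey, with exact Poisson 95% intervals (mono., monocyte; mac., macrophage; DC, dendritic cells). Cpt1a, Slc25a20, Acox3 and Ucp2 are lowest in malignant cells in CTRL, Eci1 is highest there, and Acadm is highest in migratory dendritic cells (214 CPM in SCDi, 225 CPM in CTRL).

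In brain-resident and recruited phagocytes few of the genes were called. In microglia (427 SCDi and 308 CTRL cells) 25 genes were measured, 1 was lower and none higher, beside 9.5% of all measured genes lower and 6.09% higher. Decr1 was the one, with 15.4 CPM in SCDi (135 UMIs) and 20.6 CPM in CTRL (154 UMIs), log2 -0.42 (-0.76 to -0.08). In macrophages (1565 SCDi and 1525 CTRL cells) 1 of 26 was lower and 1 higher, beside 10.4% and 4.6% of all measured genes. There Eci2 had 34.3 CPM in SCDi and 26.3 CPM in CTRL (log2 0.38, interval 0.25 to 0.52), and Ppard had 47.9 CPM in SCDi and 60.8 CPM in CTRL (log2 -0.34, interval -0.44 to -0.24). Mki67 in macrophages had 600 UMIs in SCDi and 297 UMIs in CTRL (log2 0.73). Its direction differed between leukocyte classes. It was lower in SCDi T cells (179 CPM in SCDi, 243 CPM in CTRL). The same held for cells in both the monocyte and macrophage gates (3.44 CPM in SCDi, 6.00 CPM in CTRL). Hypoxia markers were lower as well, 5 of 8 measured in macrophages with a median log2 ratio of -0.47, and 4 of 5 in microglia with a median of -0.42, and none was higher in either class. The part of Mki67 and of these markers was not tested. Ucp2 lay just inside the line in macrophages, with 28769 UMIs in SCDi and 18974 UMIs in CTRL (log2 0.317 against a line at 0.322).

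In monocytes both Cpt1a and Slc25a20 were lower in SCDi. Cpt1a had 23.4 CPM in SCDi monocytes (261 UMIs) and 32.8 CPM in CTRL monocytes (371 UMIs), log2 -0.48 (-0.72 to -0.25). Slc25a20 had 44.5 CPM in SCDi (495 UMIs) and 63.0 CPM in CTRL (713 UMIs), log2 -0.50 (-0.67 to -0.34). Both were called lower in SCDi in malignant cells as well, which come from the other pair of libraries of the same pooled mice. Crat, at log2 0.35 with an interval that held 0, and Acadm, with 21.0 CPM in SCDi and 16.8 CPM in CTRL (log2 0.32, interval 0.04 to 0.61), were higher. In all, 2 of 21 measured genes were lower and 2 higher in monocytes (778 SCDi and 792 CTRL cells), beside 9.31% and 6.78% of all measured genes. Hypoxia markers also differed in monocytes, where 4 of 7 measured were lower and none higher with a median log2 ratio of -0.33. They were not lower in every class. In NK cells 3 of 5 measured were higher and 1 lower, with a median of 0.33. In type 2 conventional dendritic cells 2 of 4 were higher and 0 lower, with a median of 0.31. The part of hypoxia was not tested. Cells that passed both the monocyte and the macrophage gate (1377 SCDi and 1197 CTRL cells) had 0 of 23 genes past the line in either direction, beside 7.97% of all genes lower and 3.8% higher. In those cells Cpt1a was at log2 -0.20 (-0.34 to -0.07) and Slc25a20 had 45.1 CPM in SCDi and 54.5 CPM in CTRL.

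Counts in the dendritic cell classes were small. In type 2 conventional dendritic cells (117 SCDi and 144 CTRL cells) 1 of 15 measured genes was lower and 4 were higher, beside 19% and 18.8% of all measured genes. Hsd17b4 had 58.1 CPM in SCDi (129 UMIs) and 36.1 CPM in CTRL (91 UMIs), log2 0.69 (0.29 to 1.09). Acadm had 75.7 CPM in SCDi (168 UMIs) and 47.9 CPM in CTRL (121 UMIs), log2 0.66 (0.31 to 1.01). Eci2 followed at 0.52 (0.15 to 0.89) and Acox3 at 0.32, with an interval that held 0 (-0.13 to 0.78). Ppard was lower, with 65.3 CPM in SCDi (145 UMIs) and 100 CPM in CTRL (253 UMIs), log2 -0.62 (-0.92 to -0.32). Top2a in the same cells stood at 42.8 CPM in SCDi and 11.1 CPM in CTRL, and the part of cycling was not tested.

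In migratory dendritic cells (231 SCDi and 443 CTRL cells) 1 of 16 was lower and 3 were higher, beside 14.1% and 6.99% of all measured genes. Slc25a20 had 78.0 CPM in SCDi (250 UMIs) and 52.2 CPM in CTRL (307 UMIs), log2 0.58 (0.33 to 0.83), so that it was higher in SCDi here and lower in monocytes and malignant cells. The intervals of Etfdh (0.45), Etfb (0.43) and Acads (-0.39) held 0. In plasmacytoid dendritic cells (82 SCDi and 102 CTRL cells) 1 of 11 was lower and 2 were higher, beside 14% and 10.4%. Acads, at 0.59 (0.02 to 1.17), and Etfb, at 0.42 (0.06 to 0.79), were the higher ones, and Hadha, at -0.48, had an interval that held 0.

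Lymphocyte classes were small. In T cells (176 SCDi and 291 CTRL cells) 0 of 20 measured genes were lower and 1 higher, beside 16% and 11.9% of all measured genes, and the interval of that gene, Eci1 (0.34), held 0. In NK cells (153 SCDi and 181 CTRL cells) 1 of 8 was lower and 1 higher, beside 12.1% and 10.9%. Acadl had 77.9 CPM in SCDi NK cells (87 UMIs) and 107 CPM in CTRL NK cells (180 UMIs), log2 -0.46 (-0.85 to -0.09), and the interval of Etfa (0.34) held 0. In B cells (101 SCDi and 106 CTRL cells) 1 of 6 was lower, Hadha at -0.39 with an interval that held 0, and none was higher, beside 20% and 12.9%. In these 3 classes the shares called were near or below the shares over all measured genes.

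Some genes kept 1 sign over most of the classes in which they were measured. Cpt1a was below 0 in 10 of the 11 classes, of which 6 had it measured, and 5 of those 6 were below 0, from -0.48 in malignant cells and monocytes to 0.02 in microglia, where it had 30.5 CPM in SCDi and 30.0 CPM in CTRL. Ppard was below 0 in 8 of 10 classes with measured levels, 5 of them beyond counting error. Decr1 was below 0 in 5 of 5 classes with measured levels, 2 of them beyond counting error, but in only 6 of all 11 classes. Crat was above 0 in 5 of 5 classes with measured levels and below 0 in 3 of all 11 classes. Acaa1a was above 0 in 8 of 10, among them macrophages with 102 CPM in SCDi and 90.6 CPM in CTRL and monocytes with 95.5 CPM in SCDi and 78.6 CPM in CTRL. The 10 leukocyte classes share the same pair of libraries, so their signs are not separate observations. Hadha and Hadhb, the divergent neighbours on chromosome 5, had the same sign in 6 of the 11 classes.

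**Figure D4:**
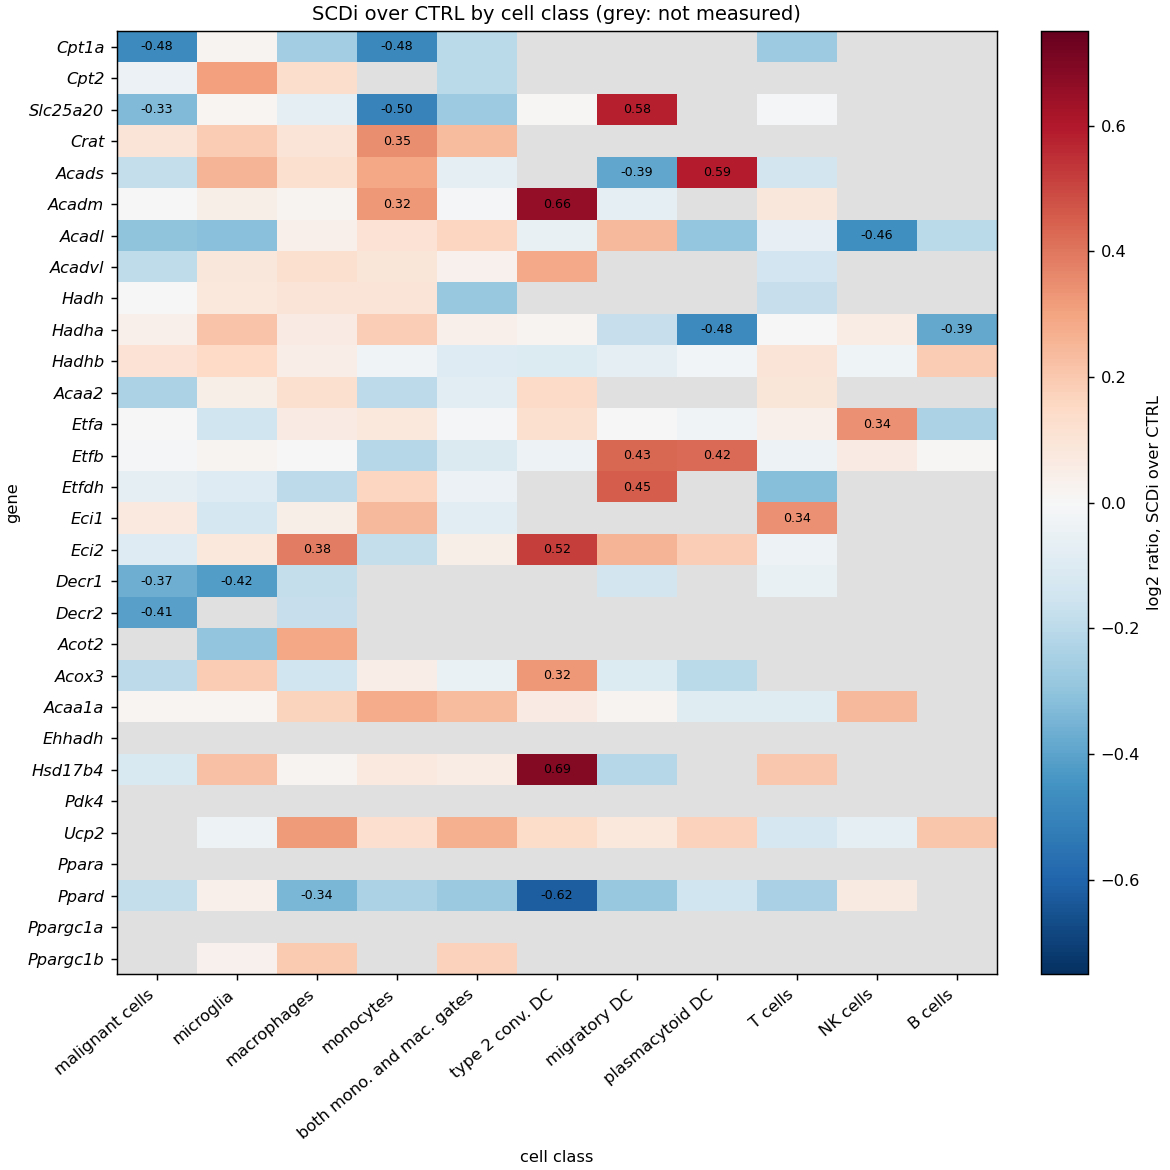
Log2 ratio of SCDi over CTRL for each of the 30 genes (rows) in each of the 11 cell classes (columns), red where higher and blue where lower in SCDi, grey where the gene was not measured. Values are printed where they pass the line, such as -0.48 for Cpt1a in malignant cells and in monocytes and 0.58 for Slc25a20 in migratory dendritic cells (mono., monocyte; mac., macrophage; DC, dendritic cells).

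The median log2 ratio of the measured oxidation genes lay within 0.12 of 0 in every leukocyte class. It was highest in type 2 conventional dendritic cells, at 0.12 against 0.01 over all measured genes, and lowest in B cells, at -0.10 against -0.05. In macrophages it was 0.06 against -0.02, in monocytes 0.09 against -0.02, in microglia 0.04 against -0.02 and in NK cells 0.06 against 0.00. Cells in both gates (-0.04), T cells (-0.05), plasmacytoid (-0.03) and migratory dendritic cells (-0.03) were slightly below 0. The median was above 0 in 5 of the 10 leukocyte classes and below 0 in malignant cells, and the difference between classes was not tested.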

How the data were processed

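Single-cell 3' RNA counts from 4 droplet libraries were used, 1 for each treatment and sort. The matrices hold UMI counts as deposited, made with Cell Ranger 7.1.0 on mm10 per the submitters' processing notes. R studio and Seurat are named for later steps, per the labels' protocols. No source used here names the annotation or says how intronic reads were counted. GENCODE M21 gave gene positions by identifier.

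Barcodes with at least 300 genes and at most 15% mitochondrial UMIs were kept. A reimplementation of Scrublet marked at most 0.0775% of barcodes, so the highest scores were removed instead, at 0.8% per 1000 barcodes. This left 8262 SCDi tumour, 6120 SCDi immune, 7009 CTRL tumour and 6572 CTRL immune cells. Cells were classed by counting detected marker genes, with thresholds chosen after the data were seen, and 2.73% to 20.8% of a library fell outside the classes or in more than 1. Neutrophils, type 1 conventional dendritic cells and mast cells or basophils were too few to compare. Classes are named for those markers. Only 1 of the 10 leading genes of the macrophage class was among its own markers. Tumour cells were also clustered (Leiden, resolution 1) without the oxidation genes.

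UMIs were summed by class and divided by the class total (CPM). The log2 ratio of SCDi over CTRL used 0.5 added counts and an exact conditional binomial interval. On simulated malignant counts over 9475 genes this interval held the true ratio for 95.4% of unchanged genes. The simulated counts were drawn from the Poisson model that the interval assumes, so they check the calculation and not the spread of real counts. Levels have exact Poisson intervals. Both cover counting error only. No p-value was computed, since each group is 1 library of 3 pooled mice.

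The genes and companion lists were chosen with earlier results of these data known. Every oxidation gene is accounted for. Leukocyte classes name measured genes past the line of 0.32 (log2), up to 4 each way, and companion lists name the 2 highest and 2 lowest measured genes in malignant cells, except for 1 gene that is not reported here. Python 3.11.15, numpy 2.4.6, scipy 1.17.1 and leidenalg 0.10.2 were used.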

Additional observations from a re-analysis of the deposited data

Results flagged for a closer look

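Slc25a20, the carnitine-acylcarnitine carrier, was called in opposite directions in 2 cell types. Its log2 ratio of SCDi over CTRL was -0.33 in malignant cells and 0.58 in migratory dendritic cells (78.0 CPM in SCDi, 52.2 CPM in CTRL). With 1 library per group the difference between the 2 ratios was not tested. No group has enough samples to look for a sample far from the others.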

How the results depend on the processing

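The median log2 ratio of the oxidation genes in malignant cells was below 0 under every alternative tried, but its size and the count of 4 lower genes moved. Over all measured genes the median as reported was below 0 as well, at -0.04, so the sign alone does not set the oxidation genes apart. Without a filter on low values the median over 30 genes was -0.18, with 9 lower and 1 higher. With a floor of 20 CPM it was -0.0147 over 15 genes, with 0 lower, against -0.0307 over all genes at that level. With 1 more marker in the gate it was -0.0369, with 2 lower. As the mean over 16 clusters it was -0.0298, with 0 lower, and over the 13 deeper clusters, an alternative chosen after seeing the data, -0.0508, with 2 lower. Less the median of each gene's chromosome (-0.14 on chromosome 8 to 0.02 on chromosome 15) it was -0.0482. The cause of these changes was not tested beyond the smaller sets of genes. Medians kept their sign in 7 of the 10 leukocyte classes under the alternatives run. Those close to 0 crossed it in migratory dendritic cells (0.0108 with scaling by the median of ratios, -0.0348 as reported), plasmacytoid dendritic cells (0.0805 without the filter and 0.0441 with 1 more marker, -0.0267 as reported) and NK cells (-0.0316 without the filter, 0.0576 as reported). Of 337 values of single genes in malignant cells under an alternative, 271 stayed within their counting interval and 66 moved, and no called gene changed sign. The moves were uneven over the alternatives. With 1 more marker in the gate 17 genes moved and 6 stayed. In cells without Mki67 or Top2a 14 moved and 9 stayed, and as the mean over clusters 10 moved and 13 stayed. Without doublet removal all 23 stayed. All 206 such values in leukocytes kept their direction or stayed within counting error. Shares of cells with a UMI depended on depth and are not reported. No paired analysis was possible because each group is 1 library. Counts under about 100 UMIs per class limit the lymphocytes and dendritic cells, and the spread between mice is unknown.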
